A study of Mus musculus with 25 samples.

Results

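The Neurod4 locus was taken as all sites of accessible chromatin (ATAC-seq peaks) that lay within 100 kb of the transcription start site (TSS) of Neurod4 in mm10, which were 7 of 45672 peaks. Neurod4 lies on the minus strand of chromosome 10 (chr10:130268152-130280240, TSS at 130280240). The locus was chosen by the signal of the peak at chr10:130263208-130263682, called the distal site here, which was among the sites that differed most between Neurog2 and Control in EGF+bFGF culture. The signal of those 6 libraries is therefore described without a test, and tests rest on contrasts of the other 19 libraries. Astrocytes had been cultured from the cerebral cortex (grey matter in the labels, white matter in the study's methods) of wild-type C57BL/6J mice of postnatal days 5 to 6 in the growth protocol and 6 to 8 in the series design. Expansion was in 10 ng/ml EGF plus 10 ng/ml bFGF or in bFGF only at the same dose, and cells carrying a retrovirus were collected by FACS 48 h after transduction. In each culture, cells received a Control virus that encoded only a fluorescent protein, Hmgb2, Neurog2, or Neurog2 together with Hmgb2. The factors were driven by the strong, ubiquitous CAG promoter, so their level was that of a transgene and not of the endogenous gene. Each of the 8 groups held 3 libraries, except Hmgb2 in EGF+bFGF culture with 4. Nothing in the labels tied the libraries of a group to separate animals or cultures, and the p-values thus rest on a spread between libraries that may be technical.

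Neurod4 (also called Math3) is a proneural basic helix-loop-helix (bHLH) transcription factor that acts in neuronal differentiation. Its gene is a known downstream target of Neurog2, a bHLH factor that commits cortical progenitors to the neuronal lineage. Factors of this family bind E-boxes, short DNA words of the form CANNTG, and Neurog2 prefers CAGATG, which reads CATCTG on the other strand. The repressor REST silences neuronal genes in non-neuronal cells, and Hmgb2, of the high mobility group family, binds and bends DNA without sequence preference. The study asked how Neurog2 changes chromatin in a culture in which astrocytes convert readily to neurons (EGF+bFGF) and in one in which they resist (bFGF), and whether Hmgb2 adds to it.

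One peak covered the Neurod4 TSS (promoter, 130280062 to 130280391), and the other 6 were intergenic. Downstream of the gene lay the distal site at 16.6 kb from the TSS, which is 4.47 kb past the 3′ end, and peaks at 20.3 kb (130259484 to 130259925), 35.6 kb (130244302 to 130244613) and 51.7 kb (130228330 to 130228546). Upstream lay peaks at 13.6 kb (130293843 to 130294054) and 34.1 kb (130314322 to 130314815). The peaks were 212 to 494 bp wide. Other protein-coding genes with a TSS in the window were Tespa1, a gene of T cell signalling, at 42.6 kb upstream, and the olfactory receptor genes Olfr827 and Olfr826 at 65.8 and 96.1 kb downstream. None of these 3 had a promoter peak. The 34.1 kb upstream peak lay 8.1 kb from Tespa1, and the 35.6 and 51.7 kb downstream peaks were nearer to Olfr827 than to Neurod4. Distance does not tell on which gene a site acts. The nearest peaks beyond the window were 544.7 kb away on the downstream side and 139.8 kb away on the upstream side.

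The central 300 bases of the 4 sites that were higher with Neurog2 in most tested comparisons, and those of the promoter, are shown to compare their E-boxes. All are from GRCm38 (mm10), plus strand, 5′ to 3′, with each CANNTG match in capitals, and Neurod4 reads on the opposite strand.
Distal site, 16.6 kb downstream, chr10:130263296-130263595: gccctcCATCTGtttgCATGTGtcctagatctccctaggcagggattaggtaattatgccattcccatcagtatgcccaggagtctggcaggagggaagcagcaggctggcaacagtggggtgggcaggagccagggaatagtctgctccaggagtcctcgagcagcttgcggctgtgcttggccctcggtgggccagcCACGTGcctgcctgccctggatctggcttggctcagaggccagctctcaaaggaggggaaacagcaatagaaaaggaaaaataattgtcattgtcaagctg
20.3 kb downstream, chr10:130259555-130259854: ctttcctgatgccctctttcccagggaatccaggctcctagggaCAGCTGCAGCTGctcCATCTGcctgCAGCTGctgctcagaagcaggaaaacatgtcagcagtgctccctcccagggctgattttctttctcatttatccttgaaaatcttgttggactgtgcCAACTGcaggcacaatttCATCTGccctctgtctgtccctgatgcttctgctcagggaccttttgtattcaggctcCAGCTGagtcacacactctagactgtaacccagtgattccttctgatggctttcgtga
35.6 kb downstream, chr10:130244308-130244607: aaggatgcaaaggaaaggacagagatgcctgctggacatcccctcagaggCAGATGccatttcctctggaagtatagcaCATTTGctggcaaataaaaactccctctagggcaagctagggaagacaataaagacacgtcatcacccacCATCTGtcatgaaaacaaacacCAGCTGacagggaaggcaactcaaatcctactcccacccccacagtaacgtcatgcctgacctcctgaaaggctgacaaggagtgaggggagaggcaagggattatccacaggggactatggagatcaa
34.1 kb upstream, chr10:130314419-130314718: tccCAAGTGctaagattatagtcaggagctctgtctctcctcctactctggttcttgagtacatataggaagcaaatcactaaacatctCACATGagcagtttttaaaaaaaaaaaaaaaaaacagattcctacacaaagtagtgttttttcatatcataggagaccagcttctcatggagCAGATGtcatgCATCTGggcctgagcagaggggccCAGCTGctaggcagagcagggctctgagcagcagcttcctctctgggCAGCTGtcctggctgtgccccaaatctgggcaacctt
Promoter, chr10:130280077-130280376: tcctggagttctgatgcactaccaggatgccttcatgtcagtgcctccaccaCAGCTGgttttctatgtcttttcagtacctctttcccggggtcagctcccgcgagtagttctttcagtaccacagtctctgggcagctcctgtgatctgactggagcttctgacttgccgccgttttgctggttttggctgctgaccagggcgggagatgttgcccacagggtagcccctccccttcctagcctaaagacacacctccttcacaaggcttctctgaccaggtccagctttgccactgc

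Each of the 4 sites held the word CAGATG on one of the strands. The distal site held 1, as CATCTG near its start, beside CATGTG and CACGTG. The 20.3 kb downstream, 35.6 kb downstream and 34.1 kb upstream sites held 2 each, and the 20.3 kb site also held 4 matches to CAGCTG, a pair of which are adjacent. The promoter window, the 51.7 kb downstream and the 13.6 kb upstream windows held none. Another E-box that was searched, CATATG, was only in the 51.7 kb window, with 1 match (4.33% of all peaks). Over windows of the same length at 45557 peaks, searched on both strands, 25.5% held CAGATG and 4.77% held it 2 or more times. Outside promoters these shares were 32.1% and 6.48%. Counting any CANNTG, the windows held 3 (distal site), 7, 4, 6 and 1 (promoter) matches in the order shown, 2 at 51.7 kb and 1 at 13.6 kb, and 75.9% of all peaks held at least 1. CAGATG and CAGCTG matches are also CANNTG matches. Neither the octamer ATGCAAAT of POU factors nor TTCAGCACC, one end of the REST element, was in any of the 7 windows (1.91% and 0.446% of all peaks). The other REST word, GGACAG, was in 4 of them, with 2 matches at 20.3 kb and 1 each at 35.6 kb, 13.6 kb and 34.1 kb (23.7% of all peaks). RefSeq (GRCm38.p6) lists 2 promoter windows of Neurod4, from 250 bases before to 50 after the start. The first, with its start at 130280254, held no CANNTG, and the second, with its start at 130280138, held 1, a CAGCTG that is also in the window printed. CAGATG was in neither, against 17.2% of 32851 RefSeq promoter windows. These matches are descriptions of the sequence.

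All values are rlog values, regularized log2 read counts per peak, on which a step of 1 is a doubling, and which pull differences of weak peaks towards 0. They are not divided by peak width, so levels are compared between libraries and not between peaks. Depth per library is unknown, and the medians of the 25 libraries lay between 4.56 and 4.67. One library stood apart: bFGF Neurog2 replicate 2 correlated with its group at a mean of 0.936 over all peaks, against 0.946 to 0.979 for the others. Promoter peaks were present for 9 of 10 astrocyte markers, 3 of 6 neuronal, 4 of 6 oligodendrocyte lineage, 2 of 6 microglial and 2 of 6 endothelial markers. The libraries' median over the astrocyte promoters was 5.44 to 6.16. That over the neuronal promoters with a peak was 6.25 to 6.76, and Rbfox3, Stmn2 and Gap43 had none. The median of these neuronal values was 6.59 with Neurog2 and 6.50 without, and that of the astrocyte values 5.87 and 5.77. It was 5.18 and 5.33 for the oligodendrocyte lineage, 4.20 and 4.13 for microglial and 5.10 and 5.13 for endothelial markers. The part of these cell types in the results was not tested. ATAC-seq of sorted bulk cells cannot tell more cells with an open site from a more open site in each cell.

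**Figure D1:**
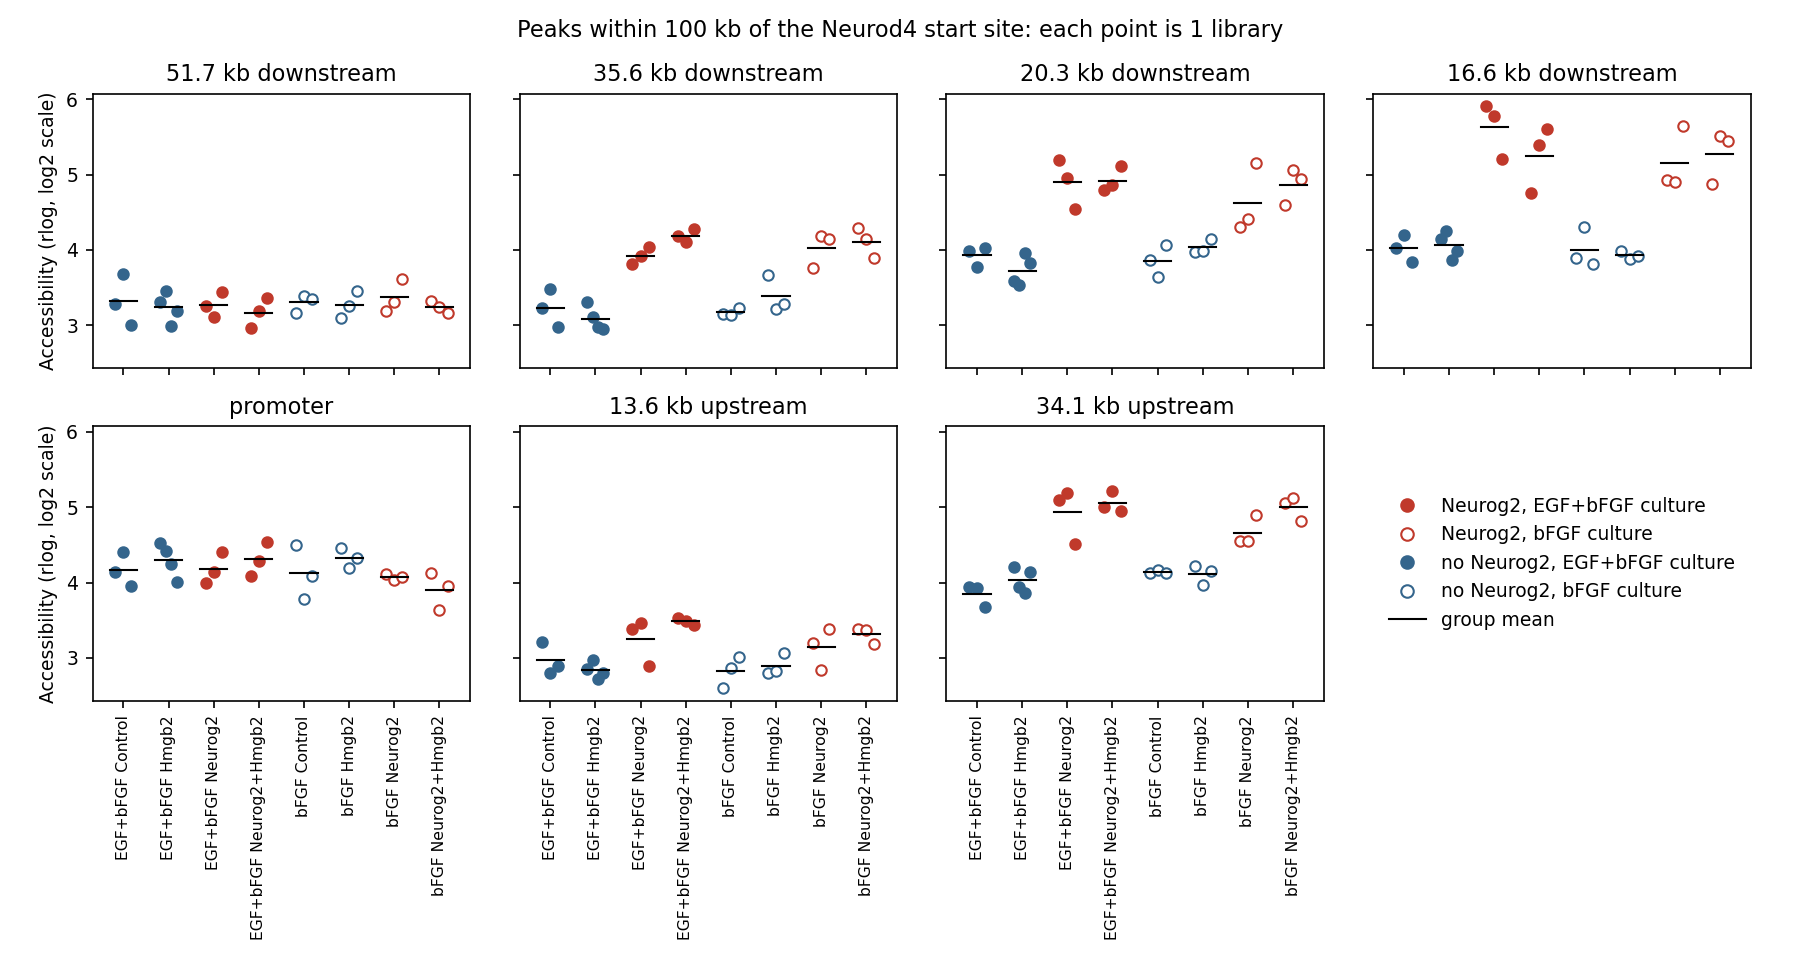
Accessibility (rlog, log2 scale) of the 7 peaks of the Neurod4 window in 8 groups. Each point is 1 library (red with Neurog2, blue without, filled in EGF+bFGF culture, open in bFGF culture) and each line a group mean. At 4 of the 7 peaks all 12 libraries with Neurog2 lie above all 13 without, and at the promoter and the 51.7 kb downstream peak the libraries with and without Neurog2 overlap.

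The distal site stood higher in every library with Neurog2 than in any without, in both cultures and with or without Hmgb2. Peaks were merged over samples, so whether the site was open without Neurog2 was not tested. In EGF+bFGF culture, whose Control and Neurog2 libraries chose the site, it was at 4.02, 4.20 and 3.84 with Control and at 5.91, 5.78 and 5.21 with Neurog2. The fitted difference of 1.62 on the log2 scale is a description of that choice, as are the 3.94% of all peaks that were higher in the same comparison at an adjusted p under 0.05.

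In bFGF culture, the distal site was at 3.90, 4.30 and 3.81 with Control and at 4.93, 4.90 and 5.65 with Neurog2. The groups did not overlap, and Neurog2 replicate 3 was the highest. The difference was 1.16 ± 0.23 (SE) on the log2 scale (limma, Benjamini-Hochberg adjusted p = 0.0105 over all peaks). Without that library it was 0.91 (limma adjusted p = 0.0788), and without Control replicate 3 it was 1.06 (limma adjusted p = 0.0504). Without the library that stood apart, Neurog2 replicate 2, it was 1.29 (limma adjusted p = 0.0104).

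With Neurog2+Hmgb2 in bFGF culture, the site was at 4.87, 5.51 and 5.44, again above every Control library. The difference from the same Control libraries was 1.27 ± 0.23 (limma adjusted p = 0.00163). Against Hmgb2 alone (3.99, 3.88 and 3.92), a comparison that shares the Neurog2+Hmgb2 libraries with the former, it was 1.34 ± 0.23 (limma adjusted p = 0.00141). In EGF+bFGF culture, Hmgb2 libraries were at 4.15, 4.25, 3.87 and 3.99 and Neurog2+Hmgb2 libraries at 4.75, 5.39 and 5.61. Replicate 1 was the lowest of all 12 libraries with Neurog2 but lay above each library without it. The difference was 1.19 ± 0.21 (limma adjusted p = 0.000561), and it was 1.44 without that replicate.

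With the 6 libraries of the choice left out, the 9 with Neurog2 ranged from 4.75 to 5.65 (median 5.39) at the distal site and the 10 without from 3.81 to 4.30 (median 3.96). The same separation of these 9 from these 10 libraries was present at 1.28% of all peaks. In the window it was present at 4 of the 7 peaks, the distal site that chose the locus among them. At the distal site, the group means in ascending order were 3.93 (bFGF Hmgb2), 4.00 (bFGF Control), 4.02 (EGF+bFGF Control), 4.07 (EGF+bFGF Hmgb2), 5.16 (bFGF Neurog2), 5.25 (EGF+bFGF Neurog2+Hmgb2), 5.27 (bFGF Neurog2+Hmgb2) and 5.63 (EGF+bFGF Neurog2). Only the step from 4.07 to 5.16 exceeded the spread within the groups, whose SDs were 0.05 to 0.45, and the neighbours on either side of it overlapped.

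**Figure D2:**
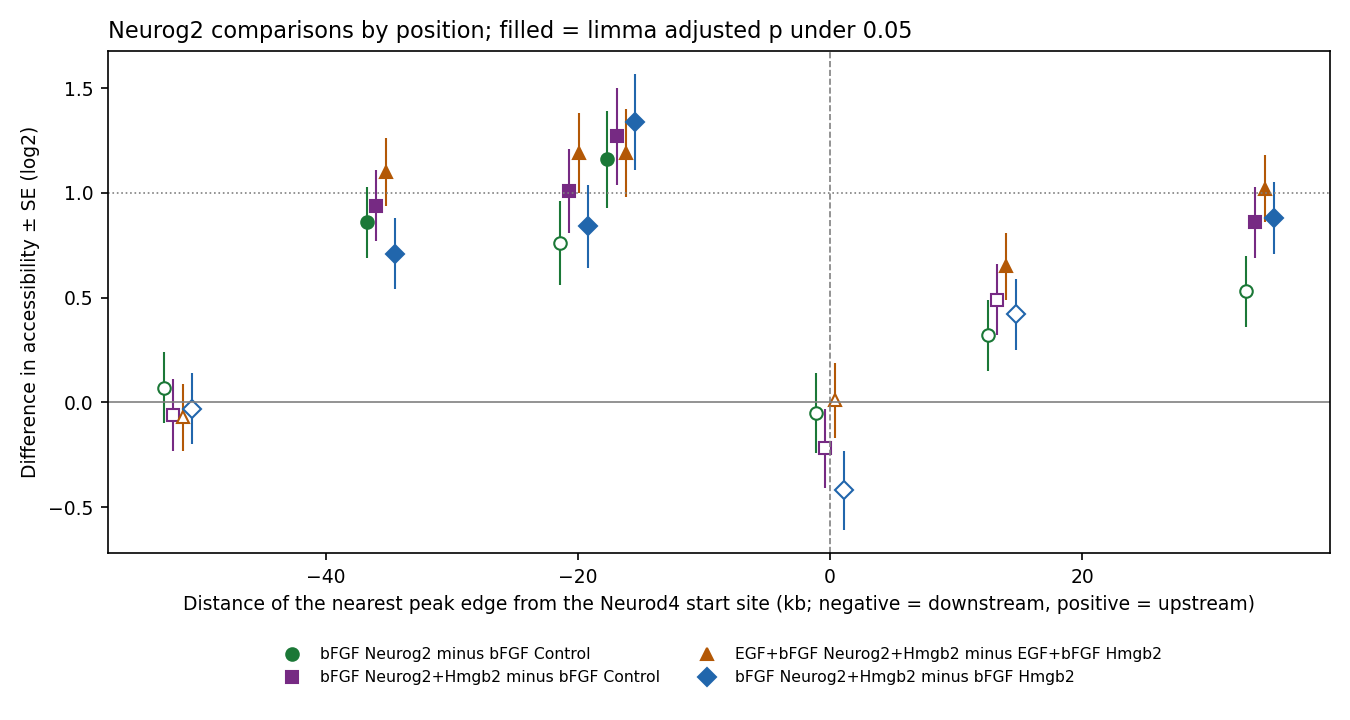
Difference in accessibility ± SE (log2) of the 7 peaks in the 4 tested Neurog2 comparisons against the distance from the Neurod4 TSS in kb (negative is downstream; markers of 1 peak are set slightly apart). Filled markers had a limma adjusted p under 0.05; the differences lie between 1.16 and 1.34 at the distal site and between -0.42 and 0.01 at the promoter.

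The distal site was not the only one in the window that rose with Neurog2. At an adjusted p under 0.05 (limma), 2 of the 7 peaks were higher with Neurog2 than with Control in bFGF culture, where 0.898% of all peaks were, and 4 of 7 with Neurog2+Hmgb2 (2.59% of all peaks). Relative to Hmgb2, 5 of 7 were higher with Neurog2+Hmgb2 in EGF+bFGF culture (5.25% of all peaks) and 4 of 7 in bFGF culture (1.96% of all peaks). The distal site, by which the locus was chosen, is in each of these counts, and without it they were 1, 3, 4 and 3. None of the 7 was lower in any of the 4, which has no share of lower peaks over all peaks beside it. The median difference of the 7 peaks was 0.53, 0.86, 1.02 and 0.71 in this order, and that of all peaks was between -0.01 and 0.01. Peaks that also differed by over 1 were 1, 2, 4 and 1 of the 7 (0.131%, 0.429%, 0.766% and 0.28% of all peaks). This limit on rlog values is stricter than a 2-fold change on counts, which the study used to define more accessible sites, so these calls are not its site lists. The distal site was among them each time.

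The site 35.6 kb downstream, which lay among the weakest peaks by mean, rose in all 4 comparisons. It was at 3.15, 3.14 and 3.23 with Control, 3.76, 4.19 and 4.14 with Neurog2 and 4.29, 4.14 and 3.89 with Neurog2+Hmgb2 in bFGF culture, so neither Neurog2 group overlapped Control. The differences were 0.86 ± 0.17 (limma adjusted p = 0.0115) and 0.94 ± 0.17 (limma adjusted p = 0.00181). In EGF+bFGF culture the Hmgb2 libraries were at 3.31, 3.11, 2.98 and 2.95 and the Neurog2+Hmgb2 libraries at 4.18, 4.10 and 4.28, a difference of 1.10 ± 0.16 (limma adjusted p = 6.02e-05). This was the smallest adjusted p of any window peak in the 4 comparisons. Against Hmgb2 in bFGF culture (3.67, 3.22 and 3.28) the difference was 0.71 ± 0.17 (limma adjusted p = 0.0195). That call was lost when Hmgb2 replicate 2 or 3 or Neurog2+Hmgb2 replicate 1 or 2 was left out (differences of 0.63, 0.66, 0.62 and 0.70), and the one for Neurog2 against Control when Neurog2 replicate 3 was (0.81). Both were also lost in fits of only the compared groups (limma adjusted p = 0.0683 against Hmgb2 and limma adjusted p = 0.11 for Neurog2 against Control).

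The site 20.3 kb downstream, the neighbour of the distal site, was at 3.87, 3.64 and 4.06 with Control and at 4.30, 4.41 and 5.15 with Neurog2 in bFGF culture. The groups did not overlap, and the difference of 0.76 ± 0.20 did not pass (limma adjusted p = 0.051). In a fit of only these 2 groups the difference did not pass either. It passed when the replicate number was added to that fit as a block (limma adjusted p = 0.0282). The fit with the block was chosen after seeing the data, in which same-numbered libraries of the 2 groups deviated together. Neurog2+Hmgb2 in the same culture gave 4.60, 5.06 and 4.94, which was 1.01 ± 0.20 above Control (limma adjusted p = 0.00377). Hmgb2 alone gave 3.97, 3.98 and 4.15, which was 0.84 ± 0.20 below Neurog2+Hmgb2 (limma adjusted p = 0.0218). That last call was lost without Hmgb2 replicate 1 or 2 or Neurog2+Hmgb2 replicate 2 or 3 (0.80, 0.81, 0.74 and 0.80). Under EGF+bFGF the site rose from 3.59, 3.53, 3.96 and 3.83 with Hmgb2 to 4.79, 4.86 and 5.11 with Neurog2+Hmgb2, by 1.19 ± 0.19 (limma adjusted p = 0.000152).

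The site 34.1 kb upstream, nearest to Tespa1, was at 4.12, 4.16 and 4.13 with Control and at 4.55, 4.55 and 4.89 with Neurog2 in bFGF culture. The difference of 0.53 ± 0.17 did not pass (limma adjusted p = 0.12) although the groups did not overlap. With Neurog2+Hmgb2 it was at 5.05, 5.12 and 4.82, which was 0.86 ± 0.17 above Control (limma adjusted p = 0.00356) and 0.88 ± 0.17 above Hmgb2 (4.22, 3.97 and 4.15, limma adjusted p = 0.00401). With EGF and bFGF it rose from 4.20, 3.94, 3.86 and 4.14 with Hmgb2 to 5.00, 5.21 and 4.95 with Neurog2+Hmgb2, by 1.02 ± 0.16 (limma adjusted p = 0.000127). These 3 calls held without any 1 of the 25 libraries.

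The small peak 13.6 kb upstream, also among the weakest, passed in 1 comparison. There, in EGF+bFGF culture, it was at 2.85, 2.97, 2.72 and 2.80 with Hmgb2 and at 3.53, 3.49 and 3.44 with Neurog2+Hmgb2, a difference of 0.65 ± 0.16 (limma adjusted p = 0.00884). In bFGF culture its differences were 0.32 (Neurog2 against Control), 0.49 (Neurog2+Hmgb2 against Control) and 0.42 (Neurog2+Hmgb2 against Hmgb2), with limma adjusted p-values of 0.402, 0.124 and 0.235. Its libraries with Neurog2 (2.84 to 3.53) and without (2.60 to 3.21) overlapped.

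The peak 51.7 kb downstream, the farthest from Neurod4, did not pass in any of the 4 comparisons. Libraries with Neurog2 ranged from 2.96 to 3.61 (median 3.25) and those without from 2.99 to 3.68 (median 3.28). Its 4 differences lay between -0.07 and 0.07, each with an SE of 0.16 or 0.17, and the 95% interval in bFGF culture for Neurog2 against Control was -0.29 to 0.42. Positions and signs of all 4 comparisons are given in the plot of differences by distance.

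The Neurod4 promoter did not follow the distal site. It was at 4.50, 3.78 and 4.09 with Control, 4.11, 4.04 and 4.07 with Neurog2, 4.46, 4.19 and 4.32 with Hmgb2 and 4.13, 3.63 and 3.96 with Neurog2+Hmgb2 in bFGF culture. The values in EGF+bFGF culture were 4.14, 4.40 and 3.96 with Control, 3.99, 4.14 and 4.40 with Neurog2, 4.53, 4.42, 4.25 and 4.01 with Hmgb2 and 4.09, 4.29 and 4.54 with Neurog2+Hmgb2. Within each culture the groups overlapped, except that in bFGF culture every library of both Neurog2 and Neurog2+Hmgb2 lay below every Hmgb2 library. The differences were -0.05 ± 0.19 (Neurog2 against Control, 95% interval -0.44 to 0.34) and -0.22 ± 0.19 (Neurog2+Hmgb2 against Control, -0.61 to 0.17) in bFGF culture. Against Hmgb2 they were 0.01 ± 0.18 (-0.36 to 0.37) in EGF+bFGF culture and -0.42 ± 0.19 (-0.80 to -0.03) in bFGF culture. The last had a limma adjusted p of 0.311 and the others 0.695 to 0.988.

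**Figure D3:**
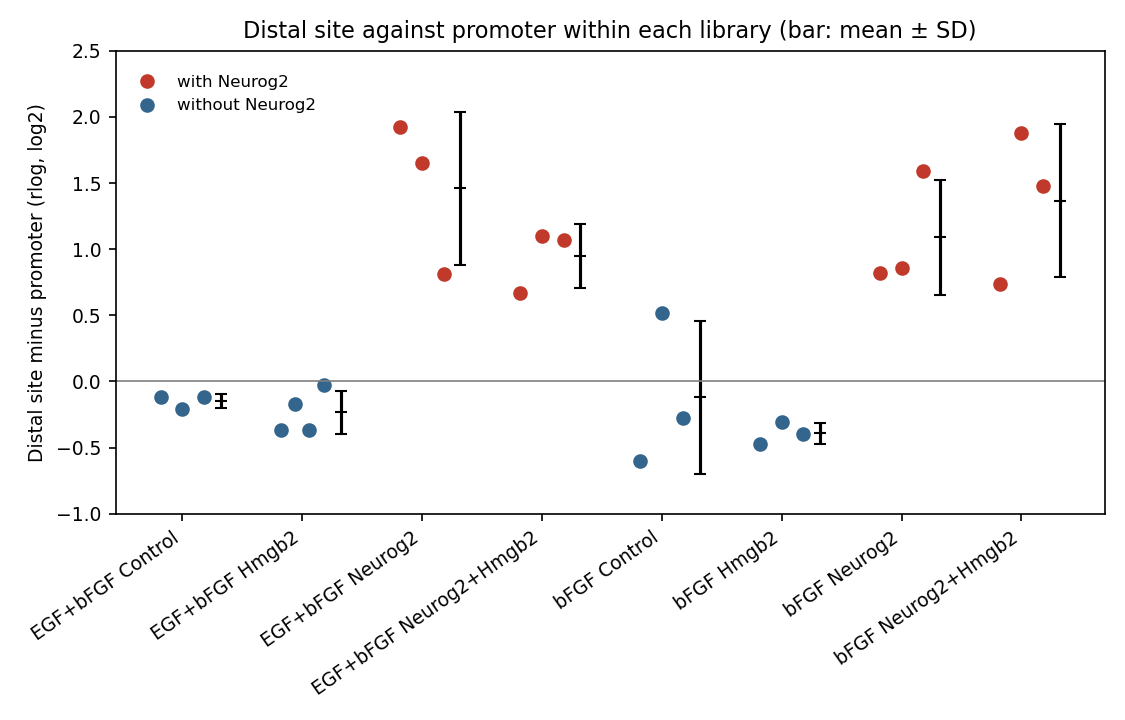
Signal of the distal site minus that of the Neurod4 promoter in the same library (rlog, log2) by group; points are libraries and bars the mean ± SD. Libraries with Neurog2 (red) lie between 0.67 and 1.92 and libraries without (blue) between -0.60 and 0.52.

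To test whether the distal site and the promoter differed in their response, the promoter's rlog value was subtracted from that of the distal site in each library. In bFGF culture this difference was -0.60, 0.52 and -0.28 with Control and 0.82, 0.86 and 1.59 with Neurog2. It was -0.47, -0.31 and -0.40 with Hmgb2 and 0.74, 1.88 and 1.48 with Neurog2+Hmgb2. In EGF+bFGF culture it was -0.37, -0.17, -0.37 and -0.03 with Hmgb2 and 0.67, 1.10 and 1.07 with Neurog2+Hmgb2. In none of the 3 settings did the groups overlap, and Control replicate 2, whose promoter value was the lowest of its group, came nearest to the Neurog2 libraries. The mean of the 3 Neurog2 effects was 1.38 (exact two-sided permutation test within settings, n = 19 libraries, p = 7.14e-05, the smallest that the 14000 arrangements can give). The separate effects were 1.18 (EGF+bFGF, exact permutation p = 0.0286 in 35 arrangements), 1.21 and 1.76 (bFGF, exact permutation p = 0.1 each, the smallest that 3 against 3 allows). With the mean of the 5 other non-promoter peaks in place of the promoter, the effect was 0.61 (exact permutation p = 0.000286). Of these 5 peaks 3 were among the weakest, whose rlog differences are pulled towards 0, and in EGF+bFGF culture the 20.3 kb peak rose by the same 1.19 as the distal site and the 35.6 kb peak by 1.10.

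Adding Hmgb2 to Neurog2 in bFGF culture, the condition in which cells resist conversion, moved the distal site by 0.11 ± 0.23 (95% interval -0.35 to 0.57, limma adjusted p = 0.957). The 4.87 to 5.51 of Neurog2+Hmgb2 lay inside the 4.90 to 5.65 of Neurog2 save for replicate 1. The interval leaves room for an increase of up to 0.57 or a decrease of up to 0.35. Over the 7 peaks the differences ran from -0.17 at the promoter to 0.33 at 34.1 kb upstream (95% interval -0.01 to 0.68, limma adjusted p = 0.716). None of the 7 passed and 0 had an unadjusted p under 0.05. Over all peaks limma called 0 (0%) in either direction, and 3251 had an unadjusted p under 0.05.

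The Neurog2 effect on the Hmgb2 background (Neurog2+Hmgb2 minus Hmgb2) differed between EGF+bFGF and bFGF culture by -0.15 ± 0.31 at the distal site (95% interval -0.78 to 0.48, limma adjusted p = 1). The largest interaction in the window was 0.42 at the promoter (-0.10 to 0.95), and 0% of all peaks passed (1094 at an unadjusted p under 0.05). Hmgb2 alone against Control in bFGF culture gave -0.07 ± 0.23 at the distal site and between -0.07 and 0.22 over the window, none past the threshold, as for all but 0.00219% of peaks. Between the cultures, the distal site differed by 0.13 with Hmgb2 (-0.30 to 0.57) and by -0.02 with Neurog2+Hmgb2 (-0.48 to 0.44). In these 2 comparisons, too, 0% of all peaks passed in limma, with 1570 and 2035 at an unadjusted p under 0.05. The promoter difference of 0.40 with Neurog2+Hmgb2 (0.02 to 0.79, limma adjusted p = 0.99) was the only one of the window among the latter.

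**Figure D4:**
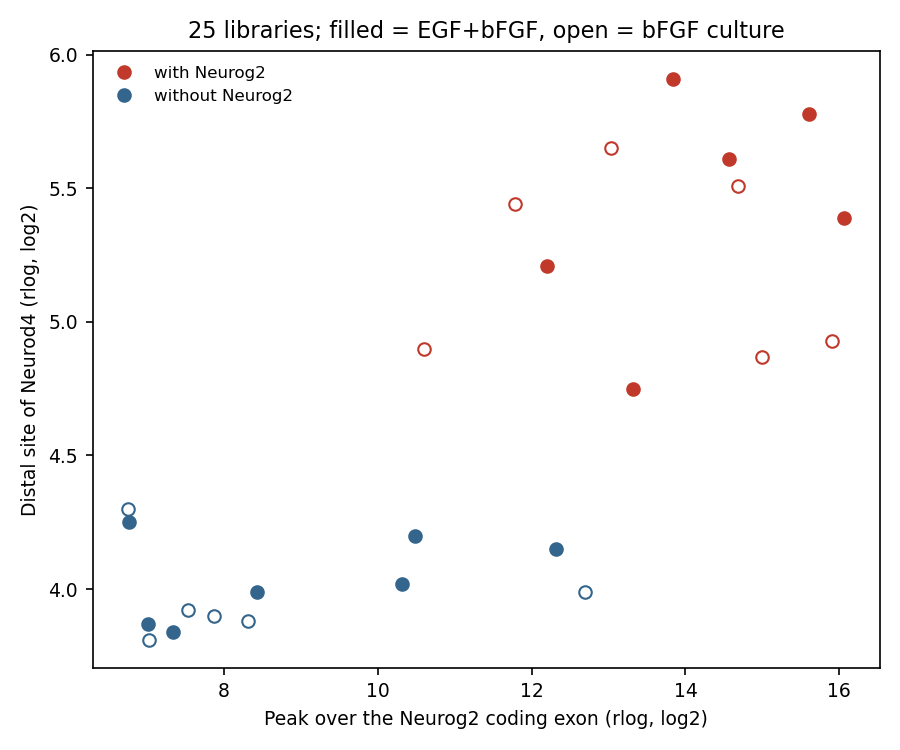
Distal site of Neurod4 (rlog, log2) against the peak over the Neurog2 coding exon, which the virus carries (rlog, log2), in 25 libraries (red with Neurog2, blue without, filled EGF+bFGF, open bFGF culture). Red and blue points overlap along the exon axis between 10.60 and 12.70 and do not overlap along the axis of the distal site.

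The peak over the coding exon of Neurog2, which reads sequence shared by the gene and the virus, gave a check of the labels. It was at 10.60 to 16.06 (median 14.21) in the 12 libraries with Neurog2 and at 6.76 to 12.70 (median 7.87) in the 13 without. The libraries labelled bFGF Hmgb2 replicate 1 (12.70) and EGF+bFGF Hmgb2 replicate 1 (12.32) lay above the lowest Neurog2 library, bFGF Neurog2 replicate 2 (10.60). Below it came EGF+bFGF Control replicates 2 (10.49) and 1 (10.32), which are among the libraries of the choice and were at 4.20 and 4.02 at the distal site. At the distal site the first 3 libraries were at 3.99, 4.15 and 4.90. Over all libraries the lowest with Neurog2 was at 4.75 there and the highest without at 4.30. Without bFGF Hmgb2 replicate 1, the distal site differed by 1.37 (limma adjusted p = 0.0068) between Neurog2+Hmgb2 and Hmgb2 in bFGF culture, and without EGF+bFGF Hmgb2 replicate 1 by 1.22 (limma adjusted p = 0.00109) in EGF+bFGF culture.

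Other genes of the neurogenic programme were read in the same comparisons. Of 32 genes of a list of proneural factors, their targets, Notch genes and early neuronal genes, 24 had a promoter peak. In EGF+bFGF culture, 9 of the 24 promoters were higher with Neurog2+Hmgb2 than with Hmgb2 and 0 lower, against 1.99% of all 16943 promoter peaks that were higher (median difference 0.32, and 0.00 over all peaks). The smallest adjusted p-values were those of Rcor2, a corepressor of the CoREST family (0.86 ± 0.16, limma adjusted p = 0.00116), Neurod1, a bHLH factor of differentiating neurons (1.02 ± 0.20, limma adjusted p = 0.00149), Nhlh1, another neuronal bHLH factor (0.95 ± 0.20, limma adjusted p = 0.0035), and St18, a zinc finger factor of the Myt family (0.71 ± 0.17, limma adjusted p = 0.00956). In bFGF culture, Nhlh1 was the only one of the 24 higher with Neurog2 (0.92 ± 0.22, limma adjusted p = 0.0299) and with Neurog2+Hmgb2 (1.07 ± 0.22, limma adjusted p = 0.00483) than with Control, where 0.313% and 0.632% of all promoter peaks were higher. Nhlh1 (0.99 ± 0.22, limma adjusted p = 0.012) and Neurod1 (0.92 ± 0.21, limma adjusted p = 0.018) were higher with Neurog2+Hmgb2 than with Hmgb2 (0.531% of all promoter peaks). Whether the Neurod4 promoter differed from these promoters in its response was not tested.

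Away from promoters, 112 peaks lay within 100 kb of the listed genes. With EGF and bFGF, 15 of them were higher and 5 lower with Neurog2+Hmgb2 than with Hmgb2 (13.4%, against 7.18% of all peaks outside promoters), and in bFGF culture 6 were higher and 0 lower (5.36% against 2.81%). Against Control in bFGF culture, 2 were higher and 1 lower with Neurog2 (1.79% higher, against 1.24%), and 5 were higher and 0 lower with Neurog2+Hmgb2 (4.46% against 3.75%), which is near the background. All these shares are of higher peaks. Counts of lower peaks, here and at the listed promoters, have no share of all peaks beside them and are descriptions. No listed gene had more than 3 higher ones in any of the 4 comparisons. In EGF+bFGF culture, Dll1, a Notch ligand, had 3 of its 3 and Slit1, an axon guidance ligand, 3 of its 7. Neurod4, whose counts include the distal site that chose the locus, had 5 of its 6. Of 16891 protein-coding genes with a peak outside promoters within 100 kb, 11 had at least 5 in that comparison, Neurod4 among them. Without the distal site Neurod4 had 4, and how many genes reached 4 there is not given. For Neurog2 against Control in bFGF culture, Dll1 had 2 of its 3 and Neurod4 2 of its 6. Here 21 genes had at least 2, Neurod4 among them, and without the distal site Neurod4 had 1. The 11 and the 21 can also hold neighbours whose windows share its peaks. A gene can have no more higher peaks than it has peaks, and these counts were not adjusted for that. At least 4, the number of Neurod4 in bFGF culture with Neurog2+Hmgb2 against either Control or Hmgb2, was reached by 4 genes in each case. These were Neurod4, its neighbours Tespa1 and Olfr827, whose windows hold the same peaks, and Gse1, named after the values were seen.

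Beyond the window, the 5 peaks whose signal was most like that of the distal site over the 25 libraries had a Pearson correlation of 0.95 to 0.96 with it. They lay in the body of Unc5c, a netrin receptor gene, 4.6 kb from its TSS (chr3:141794430-141794708), 1.6 kb from the TSS of Krtap11-1, a hair keratin associated gene (chr16:89569142-89569533), and more than 100 kb from any protein-coding TSS at chr16:63091498-63091938, chr3:119368896-119369491 and chr11:12741995-12742643. Each of the 5 held CAGATG once or more in its central 300 bases. A correlation of at least 0.9 was found for 217 peaks outside the window, and the median of all was -0.01. Within the window it was 0.90 at 20.3 kb downstream and 34.1 kb upstream, 0.83 at 35.6 kb, 0.75 at 13.6 kb, 0.09 at 51.7 kb and -0.24 at the promoter. These correlations describe 8 groups with and without Neurog2, among them the libraries that chose the site, and carry no test.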

How the data were processed

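As the labels and the methods of the study state, the authors checked reads with FastQC, trimmed them with cutadapt, aligned them to mm10 with Bowtie2, called peaks with Genrich and merged them. The deposited values are log2 values, made by the authors with the rlog transformation of DESeq2 1.36.0 from reads per merged peak. The deposited peak table gives positions, whose starts count from 0 and are printed counting from 1. All 25 library columns were used. Since values are not counts, depth is unknown and no counting interval was computed.

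Peaks were placed on GRCm38 with GENCODE models, and peaks at most 3 kb from a protein-coding TSS count as promoter peaks. Each of 45672 peaks was fitted as 8 group means over 25 libraries in limma 3.58.1 (R 4.3.3) with a mean trend, 17 residual degrees of freedom and Benjamini-Hochberg adjustment over all peaks, and the fit was tested on simulated data. The distal site minus the promoter was tested by exact permutation. Named were all window peaks, genes with a TSS in the window, the 5 most like peaks and up to 4 listed genes per comparison. The members, lists and tests were chosen with earlier results of these data known. Same-numbered libraries of bFGF Neurog2 and bFGF Control deviated together (correlations of 0.22, 0.30 and 0.23 over peaks). In an added fit of these 2 groups their numbers were therefore read as pairs, on the data alone. The main fit and the main permutation test did not pair libraries. The other group pairs checked did not deviate together throughout. Between bFGF Neurog2+Hmgb2 and bFGF Control the correlations were -0.15, -0.28 and 0.19. Alternatives were quantile normalization, median centring, a filter on low means, fits of fewer groups, no trend, a replicate block and leaving out each library.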

Additional observations from a re-analysis of the deposited data

How the results depend on the processing

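The 4 Neurog2 differences at the distal site passed under quantile normalization, median centring, no mean trend, a filter on weak peaks (mean over 3.86), fits of only the compared groups or of the 19 libraries the choice did not use, and the replicate block (limma adjusted p = 0.00994, 0.00178, 0.00147 and 0.00172 with the block over all libraries). Leaving out 1 library gave 0.91 to 1.31, 1.15 to 1.47, 1.01 to 1.44 and 1.22 to 1.54, and only the first lost its call, in 2 of 25 fits. The effect on the distal site minus the promoter was 1.40, 1.38 and 1.41 under quantile normalization, centring and pairing by replicate number (exact sign flips, p = 0.00391, the smallest that these flips can give) and 1.30 to 1.49 without 1 library. The pairing left out EGF+bFGF Hmgb2 replicate 4. Same-numbered libraries of Neurog2+Hmgb2 and Hmgb2 did not deviate together throughout in either culture, so pairs are not shown for these settings. Of the differences that did not pass, the following changed sign with single libraries left out: Neurog2+Hmgb2 against Neurog2 ran from -0.02 to 0.36 at the distal site and from -0.06 to 0.18 at 35.6 kb, and the difference between cultures from -0.35 to 0.10. At 51.7 kb Neurog2+Hmgb2 against Hmgb2 ran from -0.16 to 0.04 (EGF+bFGF) and from -0.12 to 0.06 (bFGF), and Neurog2 against Control from -0.05 to 0.16. At the promoter these were -0.11 to 0.12 (EGF+bFGF) and -0.22 to 0.14 (Neurog2 against Control), and -0.09 for the former under the block.

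Besides the distal site, the count of higher window peaks for Neurog2 against Control in bFGF culture was 1. It was 2 under median centring, no trend, the replicate block and the block in a fit of these 2 groups, chosen after seeing the data, and 0 with the low filter, with only these groups in the fit and with a difference over 1 as well; without 1 library it was 0 to 2. The filter left 4 of the 7 peaks and removed 35.6 kb, 51.7 kb downstream and 13.6 kb upstream, which took the count in EGF+bFGF culture from 4 to 2. A difference over 1 as well took the counts in bFGF culture from 3 to 1 (Neurog2+Hmgb2 against Control) and from 3 to 0 (against Hmgb2), and leaving out 1 library gave 1 to 3 for the latter. The rlog transformation pulls differences of weak peaks towards 0, and 3 libraries a group limit what can be called.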

Other observations

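The peak nearest to the window on the upstream side, 139.8 kb from the Neurod4 TSS, went the other way in 1 comparison: with Neurog2+Hmgb2 it was 0.54 lower than with Hmgb2 in EGF+bFGF culture (a difference of -0.54, limma adjusted p = 0.0368). In bFGF culture its differences were -0.24, -0.09 and -0.20, none of which passed. The peak on the downstream side, 544.7 kb away, differed by -0.40 to 0.64 and did not pass in any of the 4 comparisons.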
